A study of Mus musculus with 59 samples.

Results

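Of 59 RNA-seq libraries of mouse prefrontal cortex, the 15 with the highest immediate early gene score were set against the 15 with the lowest. The score of a library was the mean of log2(normalized count + 1) of 3 genes: Fos, a subunit of the AP-1 transcription factor, Egr2, a zinc finger transcription factor, and Npas4, a neuronal transcription factor induced by calcium entry. Those 3 genes are therefore no result, and neither is the size of the gap between the ends. Because the libraries were picked by measured expression, every value of high against low libraries is a description without a test. Tests are given for the groups that the labels define. A slope on the score was also fitted in the 29 libraries between the ends, which belong to neither end but were ranked by the same score.

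All mice were C57BL/6J and were taken on postnatal day 25, after drug or vehicle had reached the pups in the milk of their mothers from day 3 to day 24. The groups combined genotype (HT, heterozygous for the allele Chd8-S62X, or WT), treatment (fluoxetine, which blocks serotonin reuptake, lithium, an inhibitor of glycogen synthase kinase 3, or vehicle) and sex. Of the 12 groups, HT fluoxetine females held 4 libraries and each of the others 5. The labels do not say that libraries came from different animals or litters, so p-values measure only the spread between these samples, which may be technical. Chd8 itself averaged 5921 ± 384 normalized counts in libraries labelled HT and 3656 ± 309 in those labelled WT (SD, n = 29 and 30). A mutation that lowers its gene's RNA would give the opposite, and genotype directions rest on the labels.

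Immediate early genes are transcribed within minutes of synaptic activity, without new protein synthesis. Calcium entering through NMDA receptors and voltage-gated channels activates CaM kinases and the MAPK cascade, which act on CREB, SRF and MEF2 already bound at these genes. Their products include transcription factors that switch on a delayed set of genes, synaptic effectors such as Arc, and phosphatases that shut the MAPK signal down again. In cortex the level of these RNAs is widely read as a trace of recent neuronal activity.

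The score ran from 8.92 to 10.40 (median 9.30) in the high libraries and reached its maximum in HT vehicle male replicate 1. The lowest library of all was HT fluoxetine female replicate 3, at 7.40. At the upper boundary HT fluoxetine female replicate 1 was inside at 8.92 and WT lithium male replicate 5 outside at 8.88. At the lower boundary HT lithium male replicate 4 was inside at 7.97 and WT fluoxetine male replicate 4 outside at 7.99. The libraries form a continuum at both boundaries, so the ends are a ranking and not separate classes. Library totals over the series were 30.3 to 33.7 M normalized counts, with an estimated depth of 25.8 to 36.3 M reads in the high libraries and 29.6 to 36.9 M in the low ones.

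The make-up of the ends went with the replicate number in the labels. Replicate 1 supplied 10 of the 15 high libraries and 0 of the 15 low ones, and it was the highest-scoring library in 12 of the 12 label groups. The median score was 9.25 for replicate 1, 8.54 for replicate 2, 8.05 for replicate 3, 8.07 for replicate 4 and 8.22 for replicate 5. What the number stands for is not given in the sources used here. Males made up 8 of the high libraries and 3 of the low ones, lithium 8 of the high and 5 of the low, fluoxetine 3 of the high and 4 of the low, vehicle 4 of the high and 6 of the low, and HT 6 of the high and 9 of the low. Because of this imbalance, values within 1 sex and within replicate 2, which had 4 libraries at each end, are given beside the lists and the leading genes.

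**Figure D1:**
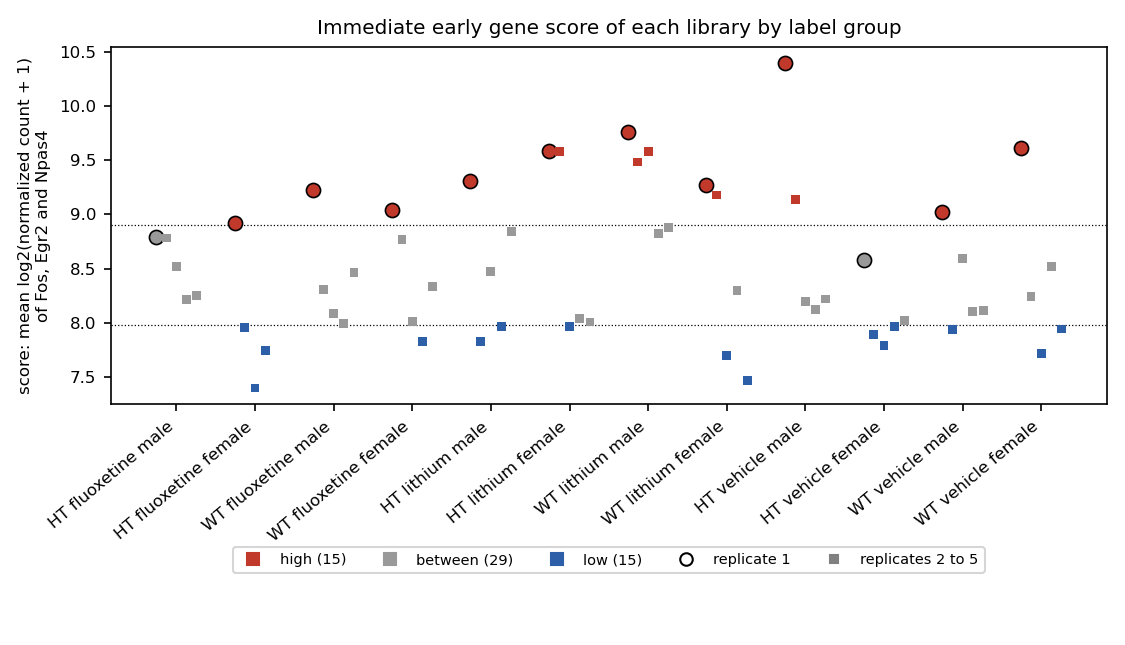
Score of each library (y axis, mean log2(normalized count + 1) of Fos, Egr2 and Npas4) in the 12 label groups. Red marks the 15 high, grey the 29 intermediate and blue the 15 low libraries, ringed circles mark replicate 1, and dotted lines mark the boundaries; replicate 1 is the top point in each of the 12 groups.

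Sequence before an annotated start is shown for 5 of the 10 early and feedback genes with a called slope on the score in the intermediate libraries. The windows of Egr1, Spry4, Arc and Bhlhe40 are not shown here. CREB binds the CRE, whose core reads TGACG. On either strand this core stood in 35 of 65 windows of 250 bases before annotated starts (53.8%). These windows belonged to 51 genes of the immediate early and feedback lists, and 30 of those genes held a core. Among windows of all annotated genes it stood in 5836 of 32851 (17.8%). The full palindrome TGACGTCA was in 9.23% and 1.55% of these windows, and the CArG box bound by SRF in 4.62% and 1.47%. A match describes letters in the window and does not show a bound site. The windows come from RefSeq promoters in GRCm38.p6 and are written 5′ to 3′ on the strand of the gene. The start used need not be the outermost one, and the Nr4a1 window lies inside the gene coordinates given below. The core is in capitals, as TGACG or as its reverse complement CGTCA. Nr4a1 (chr15:101266596-101266845, plus strand) and Nr4a3 (chr4:48045055-48045304, plus strand) held 4 cores each. Egr4 (chr6:85513590-85513839, minus strand) and Plk3 (chr4:117133964-117134213, minus strand) held 2 each, and Junb (chr8:84978749-84978998, minus strand) held 1, while the window of Ier5 held 0.
Nr4a1: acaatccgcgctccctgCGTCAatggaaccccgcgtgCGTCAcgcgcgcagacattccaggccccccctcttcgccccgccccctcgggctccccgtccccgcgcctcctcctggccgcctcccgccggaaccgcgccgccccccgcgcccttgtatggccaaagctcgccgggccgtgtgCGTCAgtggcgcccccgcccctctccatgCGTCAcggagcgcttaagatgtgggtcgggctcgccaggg
Nr4a3: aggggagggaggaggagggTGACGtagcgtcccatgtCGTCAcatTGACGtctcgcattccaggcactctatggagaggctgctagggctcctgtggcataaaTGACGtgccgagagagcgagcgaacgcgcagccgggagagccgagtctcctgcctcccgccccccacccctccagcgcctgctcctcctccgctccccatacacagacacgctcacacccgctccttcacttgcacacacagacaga
Egr4: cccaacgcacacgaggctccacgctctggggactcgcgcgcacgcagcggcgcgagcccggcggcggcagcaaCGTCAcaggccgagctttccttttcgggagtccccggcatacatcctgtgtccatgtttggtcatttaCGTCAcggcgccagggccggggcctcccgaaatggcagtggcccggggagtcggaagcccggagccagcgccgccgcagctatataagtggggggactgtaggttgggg
Plk3: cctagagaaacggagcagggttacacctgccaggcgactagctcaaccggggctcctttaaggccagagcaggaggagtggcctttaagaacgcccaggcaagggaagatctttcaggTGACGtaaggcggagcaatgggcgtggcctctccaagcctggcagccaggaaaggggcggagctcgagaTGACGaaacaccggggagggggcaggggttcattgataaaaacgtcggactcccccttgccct
Junb: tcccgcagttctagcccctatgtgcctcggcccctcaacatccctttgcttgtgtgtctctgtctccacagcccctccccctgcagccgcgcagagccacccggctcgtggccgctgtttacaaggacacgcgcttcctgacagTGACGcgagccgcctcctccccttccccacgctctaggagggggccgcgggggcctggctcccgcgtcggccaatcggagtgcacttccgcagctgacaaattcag

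The gene lists were chosen with earlier results of these data known, so their ranking is a description only. Among them the immediate early transcription factors other than the score genes were the most strongly elevated list. Of its 28 members, 27 averaged 10 normalized counts or more, and 26 of those lay above 0 in the difference of high minus low mean log2 values, as did 47.8% of all genes. In 11 of the 27 the lowest high library exceeded the highest low library. Over all 16836 genes other than the score genes, 61 showed such a gap upward (0.362%) and 8 downward (0.0475%). The upward count became 32, 8 and 68 when Fos, Egr2 or Npas4 was left out of the score. It became 6 after label group means were removed, so separate ends depend on the score and the labels. The list median was 0.63, against −0.01 for all genes. It was 0.53 among females, 0.73 among males and 0.61 among replicate 2 libraries alone.

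Junb, the gene of an AP-1 subunit that partners with Fos (chromosome 8, 84974484 to 84978718, minus strand, GRCm38), ran from 869 to 2647 normalized counts in the high libraries (median 1269) and from 369 to 568 in the low ones (median 466). The groups were separate, with a log2 difference of 1.52 (SD 0.36 and 0.19, n = 15 each) that was 1.40 among females, 1.58 among males and 1.38 within replicate 2. Nr4a1, an orphan nuclear receptor gene (chromosome 15, 101254269 to 101274795, plus strand), ran from 1710 to 4877 in high libraries (median 2598) and from 867 to 1201 in low ones (median 1047), a log2 difference of 1.37, with 1.27 among females, 1.42 among males and 1.40 within replicate 2. Egr1, which encodes the zinc finger factor also called Zif268, ran from 7749 to 15941 in high libraries (median 9822) and from 3230 to 4966 in low ones (median 4073), a log2 difference of 1.26, with 1.15 among females, 1.33 among males and 1.05 within replicate 2. For these 3 genes every high library stood above every low one.

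Klf10, a Krüppel-like factor first described as induced by TGF-beta, ran from 935 to 1643 in high libraries (median 1156) and from 455 to 765 in low ones (median 551), a log2 difference of 1.03 that was 0.66 within replicate 2. Ier2, Egr4, Bhlhe40, Nr4a3, Ier5, Per1 and Klf2 were separate between the ends as well, with log2 differences of 0.95, 0.88, 0.86, 0.86, 0.81, 0.70 and 0.60. Not every rapid factor took part. Jun and Jund, further AP-1 subunits, differed by only 0.22 and 0.21, Myc by 0.01 and Klf6 by −0.22. Fosb, a close relative of Fos, differed by 0.79 with overlapping groups, 278 to 593 in high libraries and 178 to 319 in low ones. Nr4a2, another member of the Nr4a family, had 481 to 1230 in the high libraries and 241 to 1139 in the low ones, so that its difference of 0.49 was small beside its spread.

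The immediate early effectors were led by Arc, which encodes a capsid-forming protein that removes AMPA receptors from synapses (chromosome 15, 74669083 to 74672570, minus strand, GRCm38). It ran from 2716 to 14664 normalized counts in the high libraries (median 5655) and from 689 to 1198 in the low ones (median 861). The log2 difference of 2.79 (SD 0.65 and 0.23, n = 15 each) was 2.63 among females, 2.89 among males and 2.79 within replicate 2. Apart from Y-linked genes and Xist, no gene differed more among those with a mean of at least 50. Plk3, a Polo-like kinase gene, and Gpr3, a constitutively active receptor that raises cyclic AMP, were separate too, with log2 differences of 0.86 and 0.85. In the list as a whole 19 of 21 members lay above 0, with a median of 0.30 (0.27 among females, 0.44 among males and 0.46 within replicate 2), and 3 were separate. Homer1, whose short activity-induced form uncouples postsynaptic glutamate receptors, differed by 0.37 at the level of the whole gene, with 8515 to 12650 in high libraries and 6795 to 9887 in low ones. The table sums transcripts by gene, so the short form was not measured apart. Sgk1, Rheb and Rgs2, effectors also induced by hormones or growth factors, differed by −0.03, −0.02 and 0.01.

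**Figure D2:**
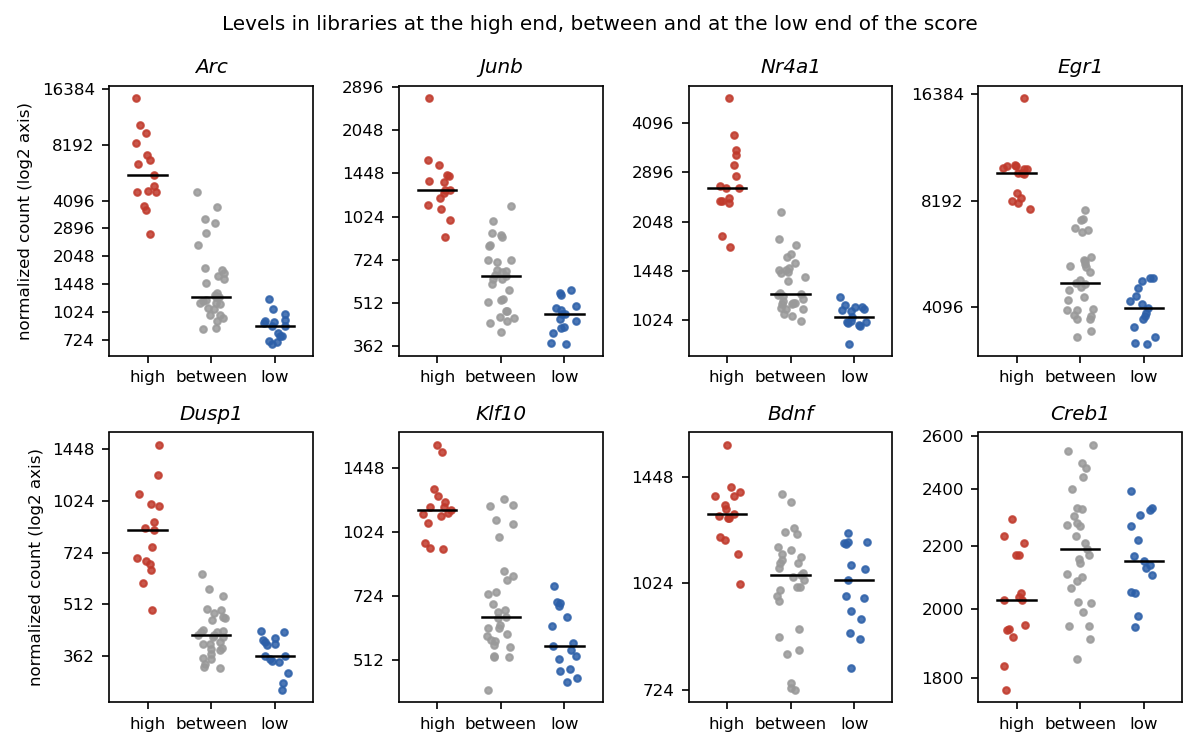
Normalized counts (log2 axis) of 8 genes in the 15 high, 29 intermediate and 15 low libraries, with bars at the medians. Arc, Junb, Nr4a1, Egr1, Dusp1 and Klf10 are separate between the ends, Bdnf overlaps, and Creb1, the gene of the upstream factor, has a median of 2028 in high and 2149 in low libraries.

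The feedback inhibitors were higher in the high libraries as well. Dusp1, a nuclear phosphatase that inactivates MAP kinases (chromosome 17, 26505590 to 26562128, minus strand, GRCm38), ran from 493 to 1493 in the high libraries (median 841) and from 287 to 427 in the low ones (median 362). Its log2 difference was 1.17, with 1.07 among females and 1.29 both among males and within replicate 2. Dusp6, the cytoplasmic ERK phosphatase, and Spry4, a Sprouty inhibitor of receptor tyrosine kinase signalling, were separate, with log2 differences of 0.84 and 0.82. So were Spred1 and Spred2, inhibitors of the RAS to RAF step, with smaller differences of 0.32 and 0.40; these 2 were named after their values were seen. Dusp5, a nuclear ERK phosphatase, overlapped between the ends, with 230 to 545 in high libraries (median 289) and 89.4 to 320 in low ones (median 150). In all, 15 of 16 members lay above 0 with a median of 0.41 (0.37 among females, 0.38 among males and 0.29 within replicate 2), and 5 were separate. The exception was Dusp2 at −0.44, a gene of only 12.7 to 39.0 counts in high and 16.8 to 38.8 in low libraries.

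The delayed activity-induced genes differed far less. Of 22 members 17 lay above 0, with a median of 0.14 (0.12 among females, 0.15 among males and 0.11 within replicate 2), and 0 were separate between the ends. Bdnf, the neurotrophin gene, ran from 1023 to 1606 in the high libraries (median 1282) and from 778 to 1204 in the low ones (median 1034), a log2 difference of 0.33 that was 0.15 within replicate 2. Kdm6b, a histone demethylase gene, Nptx1, which encodes a pentraxin that clusters AMPA receptors, and Vgf, the precursor of secreted neuropeptides, differed by 0.44, 0.40 and 0.39. The upstream machinery was nearly level: among 36 genes of NMDA receptors, calcium channels, CaM kinases, MAP kinases and their nuclear factors the differences ran from −0.13 to 0.16, with a median of 0.04 and 23 above 0. Mrtfb and Elk4, both cofactors of SRF, had the largest positive values, 0.16 and 0.15, and Rps6ka5, a kinase of CREB and histone H3, the most negative, −0.13.

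**Figure D3:**
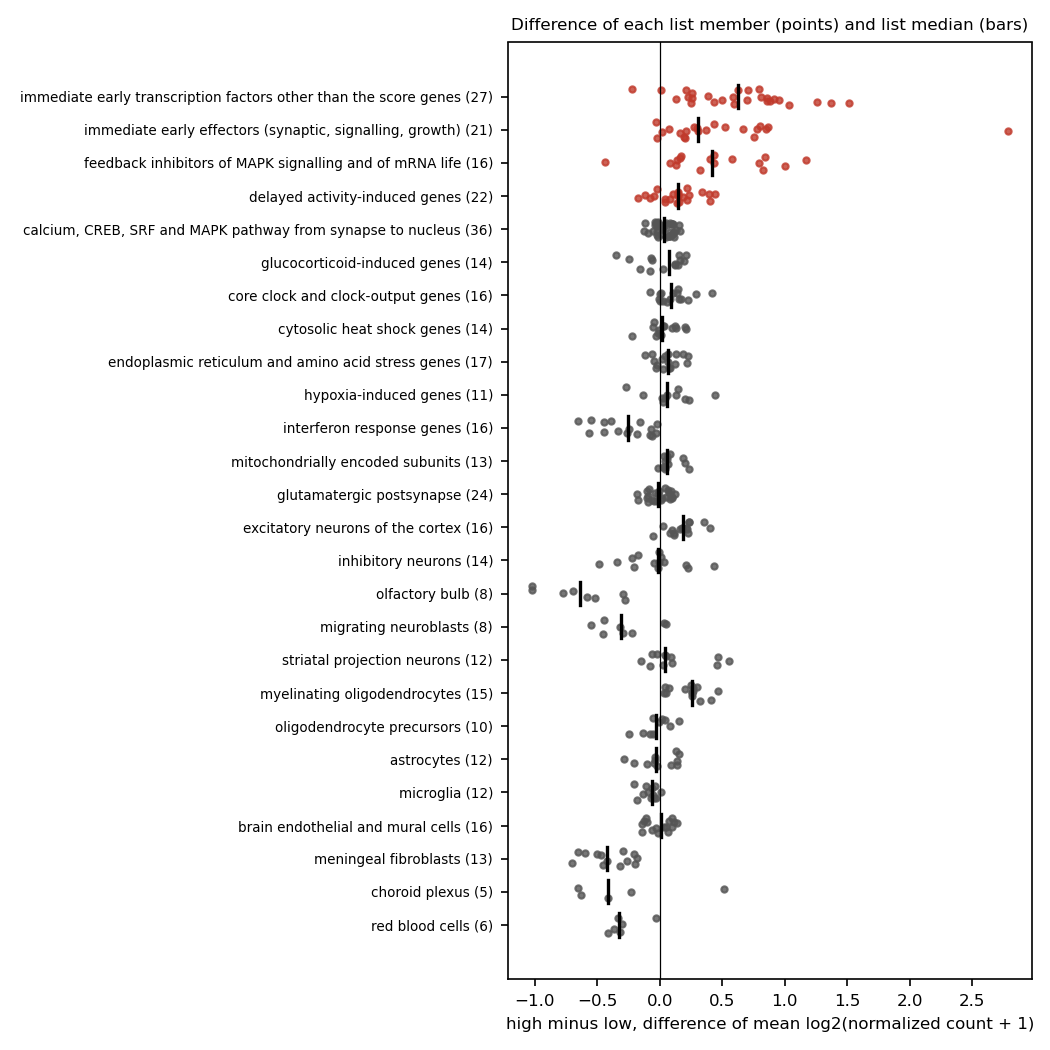
Difference of mean log2(normalized count + 1), 15 high minus 15 low libraries (x axis), of each member with a mean of at least 10 (points) and the median (bars) for 26 gene lists, with the number of members in brackets. The immediate early, feedback and delayed lists in red have medians of 0.63, 0.30, 0.41 and 0.14, and the lists with the lowest medians are olfactory bulb, meningeal fibroblast and choroid plexus markers.

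In total 19 of the 61 genes with separate ends upward belonged to the immediate early, feedback or delayed lists. Others, named after their values were seen, included Gadd45a, a stress and DNA repair gene (0.81), Nab2, a corepressor that binds Egr proteins (0.63), Sstr2, a somatostatin receptor gene (0.61), and Irs2, an adaptor of the insulin receptor (0.59). The clock list had 1 separate gene, Per2 (0.41), and a median of 0.09. The hypoxia list had 1 as well, Pfkfb3, a glycolysis-promoting enzyme (0.44), with a median of 0.06. Glucocorticoid-induced, heat shock, and endoplasmic reticulum stress genes had medians of 0.07, 0.02 and 0.06 and 0 separate members each. At a difference of at least 0.5, 142 genes were higher (0.843%) and 313 lower (1.86%). The largest differences of all were in genes of the sex chromosomes: the Y-linked Ddx3y had 3.91, and Xist, the X-inactivation transcript, −4.77, which became −0.09 among females. The 8 genes with separate ends downward were Abi3bp, Klhl14, Slc6a13, Gfpt2, 1190002N15Rik, Zfp867, Npy1r and Ccn3, with differences from −0.78 to −0.34. Npy1r encodes a receptor of neuropeptide Y, and ran from 720 to 928 in high libraries and from 937 to 1192 in low ones.

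Some marker lists differed between the ends and others were nearly level, and in bulk RNA fewer cells of a type and less RNA per cell cannot be told apart. All 13 meningeal fibroblast markers were lower in the high libraries, where 52.2% of all genes were lower, and their median was −0.42. Their mean log2 level ran from 8.04 to 8.90 in high libraries (median 8.42) and from 8.58 to 9.30 in low ones (median 8.80). Slc6a13, a GABA transporter of the meninges, was separate, with 187 to 302 in high libraries and 336 to 567 in low ones, and the list median was −0.43 among females and −0.39 among males. Olfactory bulb markers had 8 of 8 members below 0 and a median of −0.64, with levels of 5.16 to 9.08 in high and 5.35 to 9.70 in low libraries. Their direction was not stable, at 0.15 among males and 0.99 within replicate 2.

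Astrocyte, oligodendrocyte precursor and endothelial markers were nearly level, with medians of −0.03, −0.03 and 0.01 and with 5 of 12, 4 of 10 and 8 of 16 members above 0. Microglia markers had a median of −0.07 with 11 of 12 members below 0, and inhibitory neuron markers −0.01 with 9 of 14 below 0.

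Myelin genes were above 0 in 15 of 15 members (median 0.26) and markers of cortical excitatory neurons in 15 of 16 (median 0.18). The excitatory level ran from 11.41 to 11.54 in the high libraries and from 11.11 to 11.41 in the low ones, and the list median was 0.02 within replicate 2. All 16 interferon response genes were below 0 with a median of −0.26. This median was −0.06 with the meningeal level as a covariate and −0.14 after label group means were removed. Oasl2, an interferon-induced gene of this list, had 53.0 to 131 in high and 88.8 to 201 in low libraries. Red blood cell genes had a median of −0.33, but 0.09 among males. The covariates tried were bulb, meningeal and striatal levels, and not excitatory neuron or myelin levels. With the bulb level as a covariate the median of the immediate early transcription factors was 0.61, and with the meningeal level it was 0.75. Striatal markers stood over 5 robust SDs above their median in 9 libraries, 4 high and 4 low, and without them that median was 0.70.

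**Figure D4:**
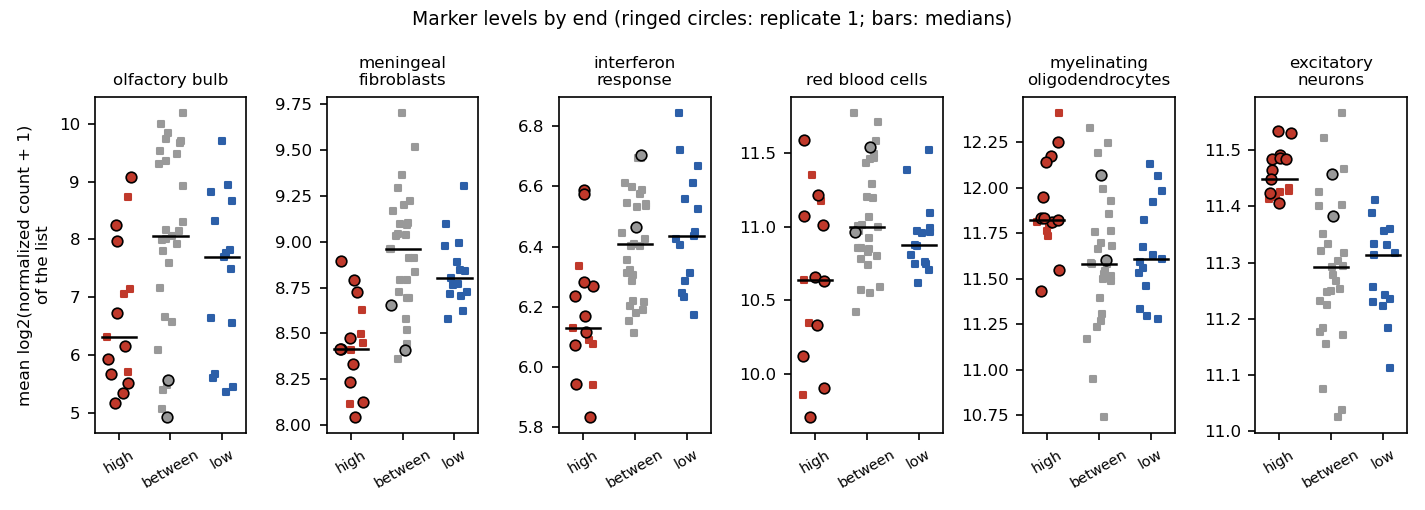
Mean log2(normalized count + 1) of 6 marker lists (y axis, a scale for each panel) in the 15 high, 29 intermediate and 15 low libraries; ringed circles are replicate 1 and bars are medians. The meningeal medians are 8.42, 8.96 and 8.80, and the 10 replicate 1 libraries among the high ones lie mostly at low bulb and meningeal levels.

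In the intermediate libraries Egr1, Spry4, Nr4a1, Nr4a3, Arc and Junb rose with the score. The score that ranked these libraries is also the variable they were fitted on, so the slopes describe how other genes went with Fos, Egr2 and Npas4 over a narrower range and are no independent support for the values at the ends. Within these 29 libraries Egr1 rose by 0.96 ± 0.13 on the log2 scale for each log2 unit of the score (slope ± SE, limma adjusted p = 0.000424). Arc rose by 1.77 ± 0.31 (limma adjusted p = 0.0101) and Junb by 0.96 ± 0.18 (limma adjusted p = 0.0150). With genotype, drug and sex as terms, limma called 31 of 16836 genes with an upward slope (0.184%) and 7 with a downward one (0.0416%), at an adjusted p under 0.05. Among them were 7 of 27 immediate early transcription factors (also Egr4, Bhlhe40 and Ier5), 2 of 21 effectors (Arc and Plk3) and 1 of 16 feedback inhibitors (Spry4). Of the delayed genes 0 of 22 and of the upstream genes 0 of 36 were called. The list medians of the slopes were 0.40, 0.17, 0.26, 0.07 and 0.06 in that order, against 0.00 for all genes.

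Outside the lists, Tnfrsf25, a death receptor gene (chromosome 4, 152115934 to 152120119, plus strand, GRCm38), rose by 1.13 ± 0.19 (limma adjusted p = 0.00368). Nrbp2 (0.25 ± 0.04), Slc7a1, a transporter of cationic amino acids (0.37 ± 0.07), Gse1, a subunit of a corepressor complex (0.48 ± 0.09), Grk3, a kinase that desensitises receptors (0.26 ± 0.05), and Dnajb5, a chaperone gene (0.34 ± 0.07), rose as well. Ttc30b, a ciliary transport gene, fell by 0.32 ± 0.06, Gucy1a1, a subunit of the nitric oxide receptor, by 0.31 ± 0.06, and Eif4ebp1, a translation repressor, by 0.72 ± 0.16. All 61 genes with separate ends upward had a positive slope and all 8 downward ones a negative slope. These genes were picked by the same score that the slope was fitted on, so the shared sign is no independent support. Of the 61, 12 were called, which is 19.7% of those 61 and 38.7% of the 31 called. Klf10 and Dusp1 had slopes of 0.85 ± 0.19 and 0.47 ± 0.13 that did not pass (limma adjusted p = 0.0542 and 0.121), and Dusp5 had −0.04 ± 0.25.

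These calls depended on the replicate number and on the marker levels. With the number as a block limma called 0 of the 16836 genes (1073 at an unadjusted p under 0.05), and Egr1, with a slope of 0.80, did not pass (limma adjusted p = 0.139). The count was 4 with the meningeal level as a covariate and 12 with the bulb level. Egr1 and Nr4a1 passed in both of these fits, while Arc (adjusted p = 0.0978 and 0.0964) and Junb (0.129 and 0.113) did not. The count ranged from 12 to 59 when single libraries were left out; the call of Arc ended without WT fluoxetine female replicate 2 (limma adjusted p = 0.0501), and that of Junb without the same library (0.0841) or HT fluoxetine male replicate 2 (0.0542). Other calls were less firm. Those of Egr4, Bhlhe40, Ier5 and Plk3 ended when any of 12, 16, 21 and 8 of the 29 libraries was left out, with limma adjusted p up to 0.117, 0.134, 0.143 and 0.103. Among the downward slopes the call of Eif4ebp1 ended in 24 of these 29 fits (limma adjusted p up to 0.133), that of Gucy1a1 in 6 (up to 0.0920) and that of Ttc30b in 3 (up to 0.0617), those without HT fluoxetine male replicate 2, HT lithium female replicate 5 or WT fluoxetine female replicate 2. Dnajb5 lost its call without HT vehicle female replicate 1 or WT fluoxetine female replicate 2 (up to 0.0849).

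**Figure D5:**
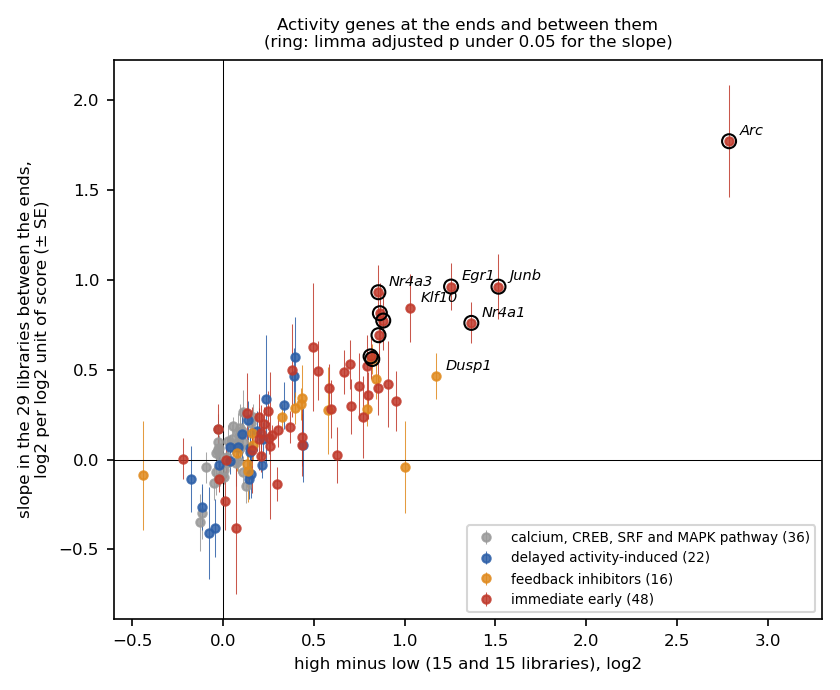
Difference of high minus low libraries (x axis, log2) against the slope on the score in the 29 intermediate libraries (y axis, log2 per log2 unit of score, bars ± SE) for immediate early, feedback, delayed and upstream genes. Rings mark slopes called by limma; Arc is farthest out on both axes, at 2.79 and 1.77, and the upstream genes lie close to the origin.

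The contrast of replicate 1 with replicates 2 to 5 was added after the make-up of the ends was seen. Since 10 of its 12 libraries are high libraries, it repeats much of the same material and is no independent support. Its p-values do not allow for this choice, and all 61 genes with separate ends upward were called higher in it. Gadd45a, Ier5 and Klf10 had the smallest p. Gadd45a ran from 152 to 339 normalized counts in replicate 1 (median 209) and from 79.2 to 200 in the other numbers (median 118), and rose by 0.79 ± 0.08 (limma adjusted p = 2.28e-08). Arc rose by 1.82 ± 0.25 (limma adjusted p = 1.92e-06), with 1475 to 14664 in replicate 1 and 689 to 9484 in the others. Limma called 1760 genes higher (10.5%) and 1541 lower (9.15%) in replicate 1. Of the immediate early transcription factors 21 of 27 were called higher, of the effectors 12 of 21, of the feedback inhibitors 11 of 16 and of the delayed genes 8 of 22, with 1 delayed gene, Scg2, lower. In the same contrast 10 of 13 meningeal and 6 of 8 bulb markers fell and 10 of 16 excitatory markers rose, so activity genes and tissue markers moved together with the number, and their parts cannot be told apart. With the meningeal level as a covariate 456 genes were called in place of 3301, and with the bulb level 1265.

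The labelled treatments, genotypes and sexes left the immediate early genes largely uncalled, although some of the lists leaned in a direction, which was not tested. Under lithium 20 of 27 transcription factors and 20 of 21 effectors lay above 0. Their medians were 0.12 and 0.11, against −0.0004 for all genes. After lithium, Arc ran from 689 to 10502 normalized counts (median 1651, n = 20), and after vehicle from 713 to 14664 (median 1190, n = 20). The log2 difference of 0.53 ± 0.37 did not pass (limma adjusted p = 0.465). Jun alone of the 48 immediate early transcription factors and effectors was called, and rose by 0.16 ± 0.05 after lithium (limma adjusted p = 0.0391), a call that ended when any of 16 single libraries was left out (limma adjusted p up to 0.0739) or with no filter on low values (0.0747). Gpr3, Crem, a CREB-family factor, and Gadd45b, a stress gene linked to DNA demethylation, lay just outside at 0.34 ± 0.11, 0.16 ± 0.05 and 0.31 ± 0.10 (limma adjusted p = 0.0589, 0.0590 and 0.0591). Each of these 3 passed with the bulb level as a covariate and when any of 12, 8 and 8 single libraries was left out. Over all 59 fits with a library left out, the limma adjusted p ran from 0.0254 to 0.108, from 0.0234 to 0.111 and from 0.0167 to 0.1104. The background was 471 genes higher (2.80%) and 271 lower (1.61%) among 16839. Among endoplasmic reticulum and amino acid stress genes 11 of 17 were called higher after lithium and 17 of 17 lay above 0 (list median 0.13). Of the delayed genes 4 of 22 rose after lithium (list median 0.10). Vgf averaged 4737 ± 637 after lithium and 3802 ± 742 after vehicle (SD, n = 20 each), a rise of 0.33 ± 0.08 (limma adjusted p = 0.0110). Pcsk1, which encodes a convertase of neuropeptide precursors, rose by 0.19 ± 0.04, Nptx2, a pentraxin gene, by 0.19 ± 0.05 and Fam126b by 0.18 ± 0.03 (limma adjusted p = 0.00219, 0.0108 and 0.00163). The 16 interferon genes were all below 0 after lithium, and 3 of them fell, Oasl2 by 0.44 ± 0.11 (limma adjusted p = 0.0133); 3 of 13 meningeal markers fell too.

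Fluoxetine against vehicle gave 6 genes higher (0.0356%) and 5 lower (0.0297%), with 0 of the immediate early, feedback and delayed genes among them. In libraries labelled HT against WT, 618 genes were higher (3.67%) and 726 lower (4.31%). Of the immediate early transcription factors 20 of 27 and of the effectors 17 of 21 lay below 0. Their medians were −0.06 and −0.07, against 0.002 for all genes. Rasd1, a Ras-like gene induced by glucocorticoids, averaged 130 ± 21.6 in HT-labelled and 151 ± 30.1 in WT-labelled libraries (SD, n = 29 and 30) and fell by 0.22 ± 0.06 (limma adjusted p = 0.0266, and 0.0509 with no filter on low values). It was the only immediate early effector called, 0 of 27 transcription factors were, and Nfkbia, the inhibitor of NF-kappaB, fell by 0.21 ± 0.05 (limma adjusted p = 0.00253). Homer1 and Pim1, a kinase gene, had −0.14 ± 0.05 and 0.20 ± 0.08 (limma adjusted p = 0.0751 and 0.0973); Homer1 passed when any of 5 single libraries was left out (as low as 0.0239), and Pim1 without WT lithium female replicate 1 (0.0388). Of the delayed genes 4 of 22 fell in HT-labelled libraries. Pcsk1 fell by 0.16 ± 0.03 (limma adjusted p = 0.000883), with 1947 ± 202 in HT-labelled and 2166 ± 232 in WT-labelled libraries (SD, n = 29 and 30). Nrn1, a gene of a membrane-anchored neurite growth factor, fell by 0.16 ± 0.05, Rgs4, a regulator of G protein signalling, by 0.13 ± 0.04 and Dclk1, a microtubule-associated kinase gene, by 0.08 ± 0.02 (limma adjusted p = 0.0438, 0.0414 and 0.0364). The calls of these 3 ended when any of 33, 29 and 17 single libraries was left out (limma adjusted p up to 0.0731, 0.0696 and 0.0609). Between males and females limma called 12 genes higher (0.0713%) and 14 lower (0.0831%), none of them in the immediate early lists, although 25 of 27 transcription factors lay above 0 with a median of 0.14. Fosb had the smallest p among them, with 0.30 ± 0.10 (limma adjusted p = 0.335). The interactions of lithium, of fluoxetine and of genotype with sex gave 0 calls by limma each, with 438, 600 and 530 genes at an unadjusted p under 0.05. Each count is below a share of 0.05 of the 16839 genes, the share that such a cutoff passes without any effect.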

How the data were processed

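Per the labels' protocols, libraries were made with a stranded mRNA kit. The authors deposited 1 table of normalized counts (a signal: estimated counts divided by a factor per library) for 51456 genes. The submitters' processing notes name DESeq2 1.19.11, R 3.6.0, Salmon 0.11.2 and GRCm38. The values are not whole and whole reads were not recovered, so no count model was fitted, although one had been planned for raw counts. Reads of near-identical or overlapping genes can be split between them.

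Tests used limma 3.58.1 (R 4.3.3, statmod 1.5.0; trend and robust) on log2(value + 1) of 16839 genes with a mean of at least 10, with Benjamini-Hochberg adjustment and calls at 0.05; this scale understates changes of low genes. The slope was fitted in 29 libraries, and label contrasts on the means of 12 groups in all 59. Errors after ± are SE for log2 values and SD for counts. On simulated data with 16839 genes the slope fit recovered 57% and 80% of genes changed by 0.5 and 1.

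The members and the 26 gene lists were chosen with earlier results of these data known. Named genes were the 12 largest differences per direction with a mean of at least 50, members of the immediate early lists, the 4 largest of each other list, the 12 called slopes per direction with the smallest p, and 3 genes and 4 immediate early members per label contrast; others are said to have been named after their values were seen, as were all members of other lists beyond the 4. Genes of the added replicate contrast were chosen after as well. Alternatives were the number of libraries at each end, the make-up of the score, TMM factors, the pseudocount, the filter, marker covariates, the replicate block, subsets by sex, number or striatal level, and each library left out.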

Additional observations from a re-analysis of the deposited data

How the results depend on the processing

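Of 468 recomputed list medians 12 moved by more than the spread, and of 3744 recomputed gene differences 68 did. The spread was the SD between libraries within the ends. A median could change sign inside it, as those of bulb and red blood cell markers did among males. Of the limma estimates refitted for the genes of smallest p and the leading immediate early members, 0 changed sign. Other called genes were not checked for this. Genes with separate ends upward numbered 61, and 114 with 10 and 17 with 20 libraries at each end. They numbered 32 without Fos and 8 without Egr2 in the score, 26 with a standardized score, and 6 after label group means were removed. Subsets, chosen after seeing the data, gave 124 in females, 416 in males, 561 in replicate 2 and 103 without libraries of high striatal markers; smaller groups overlap less by construction. Downward the count was 8, and in the same order 34, 1, 3, 0, 2, 1, 27, 291, 410 and 24, with 13 under the bulb and 16 under the meningeal covariate. Differences of at least 0.5 upward numbered 142, and 415 with no filter, 78 after group means were removed, 298 in males and 404 in replicate 2. Downward they numbered 313, and 935, 171 and 520 under the first 3 of these settings.

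Calls for the slope numbered 38, and 12 with no filter, 12 and 80 with the bulb and striatal levels as covariates and 23 without trend or robust shrinkage. The meningeal covariate and the replicate block, both chosen after seeing the data, gave 4 and 0, and leaving out single libraries gave 12 to 59, with 19 of 29 moving the count by over 1.5 times. Lithium gave 742 calls, 483 with no filter and 1287 with the bulb level (561 to 881 with a library left out). Fluoxetine gave 11, and 4 with no filter, 46 with the bulb level and 7 without trend (4 to 74). HT against WT gave 1344 and 877 with no filter (1097 to 1677). Males against females gave 25 to 33 with a library left out, and the fluoxetine by sex interaction 0 to 1. Replicate 1 gave 3301 (2329 to 3775), and 456 and 1265 with the meningeal and bulb levels.

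Same-numbered libraries were only weakly alike. Of 319 pairs of the same number in different groups, 123 had a correlation of deviations over 0.1. The median correlation was 0.05 for these pairs and −0.02 for pairs of different numbers. In 19 of 59 libraries the average correlation was highest with libraries of their own number. The number still went with the score and with many genes, as given above. The replicate block gave 1030 calls for lithium, 1828 for genotype, 41 for fluoxetine and 31 for sex. Under it Gpr3, Crem and Gadd45b passed after lithium (limma adjusted p = 0.002375, 0.0116 and 0.00243) and Homer1 in HT against WT (0.0153). The causes of these shifts were not tested.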
